A study of Brassica rapa with 6 samples.

Results

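Beta carbonic anhydrases are zinc enzymes that interconvert carbon dioxide and bicarbonate. The loci described here are those of the deposited gene table that carry a single gene name and whose description contains the words beta carbonic anhydrase. There were 8 of them among 45666 loci with 1 gene name and 49200 loci in all. Of these, BraA02g005650.3C and BraA05g040570.3C were selected on the measured values described here, as the members with the largest excess in leaf over petiole. Their tissue difference is therefore given as a description, without a test, beside the other 6 copies, which were found by their description alone. A further locus that merges the annotated genes BraA06g027810.3C and BraA06g027820.3C also has this description and was left out because its reads cannot be assigned to 1 gene.

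In C3 leaves, chloroplast beta carbonic anhydrases are among the abundant soluble proteins, and the enzyme keeps carbon dioxide and bicarbonate in equilibrium near Rubisco. Other isoforms lie in the cytosol, at the plasma membrane or in mitochondria, where they feed enzymes that take bicarbonate. In Arabidopsis, CA1 and CA4 together are also needed for the normal closing of stomata at high carbon dioxide. The alpha and gamma classes are unrelated in sequence. The gamma class is part of mitochondrial complex I in plants.

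RNA was sequenced from baby Chinese cabbage, a small variety of *Brassica rapa* that forms heads, in 6 libraries. Leaf gave 3 of them and petiole, which is the leaf stalk, gave the other 3. Both groups came from an inbred line, were harvested mature and had no treatment. Total RNA was depleted of ribosomal RNA before strand-specific libraries were made, per the labels' protocols. The labels number the libraries without saying whether each came from a separate plant, and the p-values below cover only the spread among these libraries, which may be technical.

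Library totals of the deposited estimated counts ran from 111518411 to 121161682 units for leaf and from 120805715 to 132861243 units for petiole. From the spacing of low counts, each sequenced fragment was estimated to be worth 3.82 to 3.88 of these units, depending on the library. Fragment numbers below are estimates that use the median of 3.845 for every library. Levels of different loci are compared as FPKM, which are scaled to transcript length. Levels of 1 locus in the tissues are compared as CPM, counts scaled to the TMM-normalised library size. Of 24 antenna protein loci tested, which mark green cells, 23 were higher in leaf, and their summed FPKM was 2869 to 3122 in leaf and 423 to 463 in petiole. Of 21 xylem marker loci tested, 18 were higher in petiole and none in leaf by edgeR, beside 31.5% and 31.1% of all loci tested, with summed FPKM of 77.8 to 78.7 in leaf and 243 to 253 in petiole. Of 18 phloem marker loci tested, 8 were higher in leaf and 5 in petiole, and of 15 epidermis marker loci tested likewise 8 and 5. Summed FPKM of the phloem markers was 148 to 149 in leaf and 137 to 145 in petiole, and that of the epidermis markers was 79.7 to 83.6 and 92.9 to 98.1. The part of these markers' cell types in the results below was not tested, and in bulk tissue fewer cells of a type and less RNA per cell cannot be told apart.

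In leaf the family was led by BraA02g005650.3C and BraA05g040570.3C. BraA02g005650.3C, annotated as chloroplastic beta carbonic anhydrase 2, lies on chromosome A02 at 2674642 to 2677016 on the plus strand. It stood at 332, 305 and 329 FPKM in the leaf libraries and at 0.269, 0.295 and 0.148 FPKM in the petiole libraries. The tissues lay far apart, and among the 49200 loci this one ranked between 66 and 73 in the leaf libraries and between 28750 and 30083 in the petiole libraries. Arabidopsis CA2 is best known as a cytosolic enzyme, whereas the table's GO terms place this locus in cytosol and in chloroplast stroma.

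The same locus gave 513.9 ± 28.0 CPM in leaf against 0.232 ± 0.0731 CPM in petiole (SD of 3 libraries here and below), so that petiole held 0.0452% of the leaf level. The log2 difference, petiole minus leaf, was -11.10 ± 0.21 (SE). The petiole level rested on about 10.1, 10.7 and 5.20 fragments in the 3 libraries, against about 14142, 13434 and 14114 in leaf. Each petiole library thus held a few fragments of the locus, close to the floor of 3 fragments used here. That floor covers counting error only, and whether these fragments came from petiole cells was not tested. The SE took units as counts, so it can be smaller than the counting error of so few fragments.

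BraA05g040570.3C, annotated as chloroplastic beta carbonic anhydrase 1, lies on chromosome A05 at 27493504 to 27497715 on the plus strand. It stood at 120.7, 118.2 and 118.6 FPKM in leaf and at 0.109, 0.149 and 0.167 FPKM in petiole. Its leaf libraries were nearly level with each other, and its petiole libraries were again close to the floor, with about 7.01, 9.36 and 9.62 fragments. In CPM the means were 326.8 ± 6.53 in leaf and 0.236 ± 0.0511 in petiole, a log2 difference of -10.44 ± 0.12 (SE). As above, this SE can be smaller than the counting error of the petiole fragments. On the log2(FPKM + 1) scale, which understates the change of a locus near 0, the differences of these 2 loci were -8.03 and -6.72.

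Next in leaf excess, and so just outside the pair, was BraA07g035140.3C, annotated as beta carbonic anhydrase 4 (chromosome A07, 24880549 to 24886278, minus strand). It stood at 10.3, 9.09 and 9.65 FPKM in leaf and at 1.86, 1.63 and 0.956 FPKM in petiole. CA4 is a plasma membrane enzyme in Arabidopsis. The ranges did not overlap, as for 71.3% of all loci tested in CPM, and the log2 difference in CPM was -3.45 ± 0.22 (SE), with an edgeR quasi-likelihood adjusted p of 1.35e-06 and a limma adjusted p of 1.11e-05 on log2(FPKM + 1). The step from the pair to this copy was therefore from 1383-fold to 10.9-fold in the ratio of mean CPM.

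**Figure D1:**
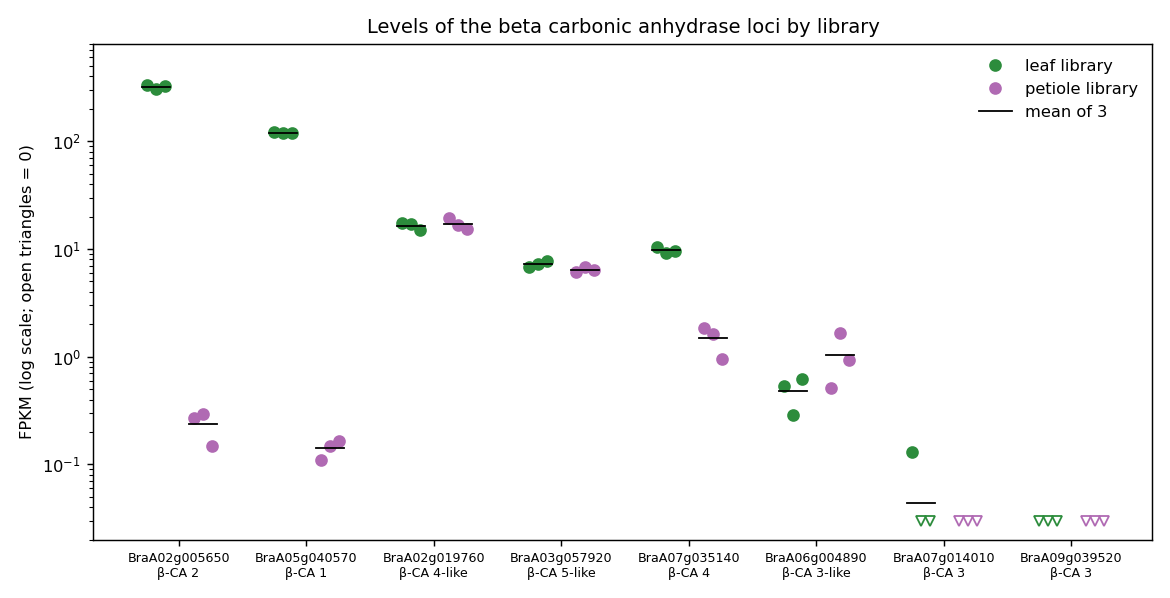
FPKM (log axis) of the 8 beta carbonic anhydrase loci in each of the 3 leaf and 3 petiole libraries, with black bars at the means and open triangles for values of 0. BraA02g005650.3C and BraA05g040570.3C lie above 100 FPKM in every leaf library and below 0.3 FPKM in every petiole library, whereas BraA02g019760.3C lies between 14.98 and 19.21 FPKM in all 6.

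Among the 4 loci tested outside the pair, 3 were higher in leaf and none higher in petiole by edgeR, beside 31.1% of all loci tested that were higher in leaf and 31.5% that were higher in petiole (62.6% in either direction). That count depended on the scale: with limma on log2(FPKM + 1) only BraA07g035140.3C passed. The median log2 difference of all loci was 0.01 in the edgeR fit, where TMM scaling draws it toward 0. On the log2(FPKM + 1) scale it was 0.36, and small leaf excesses of the edgeR fit lay nearer to 0 there or past it. Which scale is closer to the true levels was not tested. Of the loci called, 50.3% were higher in petiole in the edgeR fit and 78.4% with limma on log2(FPKM + 1). The 4 loci had a median log2 difference of -0.80, and the 6 loci tested, with the pair that was chosen on this value, one of -2.18.

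BraA02g019760.3C, a second CA4 copy annotated as beta carbonic anhydrase 4-like (chromosome A02, 11362629 to 11365101, minus strand), was number 3 of the family by leaf FPKM and number 1 by petiole FPKM. It stood at 17.25, 16.90 and 14.98 FPKM in leaf and at 19.21, 16.87 and 15.19 FPKM in petiole, so the FPKM ranges overlapped. In CPM, where the ranges did not overlap, it was 31.2 ± 2.30 in leaf and 19.5 ± 2.20 in petiole, a log2 difference of -0.68 ± 0.10 (SE; edgeR adjusted p = 0.000125), but the sign turned on log2(FPKM + 1), where the difference was 0.05 with a limma adjusted p of 0.634. Its direction thus depended on the scale.

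BraA03g057920.3C, annotated as beta carbonic anhydrase 5, chloroplastic-like (chromosome A03, 30483920 to 30485677, plus strand), had a level below that of this CA4 copy in both tissues. Arabidopsis CA5 is a chloroplast isoform. The locus stood at 6.87, 7.24 and 7.73 FPKM in leaf and at 6.09, 6.80 and 6.43 FPKM in petiole. These ranges nearly touched, at 6.87 and 6.80, without overlap, and in CPM 71.3% of all loci tested had no overlap either. Its CPM were 12.3 ± 0.730 and 6.52 ± 0.373, a log2 difference of -0.91 ± 0.11 (SE; edgeR adjusted p = 3.81e-05), while limma on log2(FPKM + 1) gave -0.15 with an adjusted p of 0.0959.

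The CA3 copies, counterparts by name of a cytosolic Arabidopsis enzyme, were low or silent. BraA06g004890.3C, annotated as beta carbonic anhydrase 3-like (chromosome A06, 2929965 to 2932512, minus strand), stood at 0.538, 0.287 and 0.626 FPKM in leaf and at 0.508, 1.65 and 0.927 FPKM in petiole. The tissues overlapped, and the log2 difference of 0.34 ± 0.50 (SE) had an edgeR adjusted p of 0.579. BraA07g014010.3C (chromosome A07, 12918461 to 12920370, minus strand) had 18 count units in leaf library 1 and 0 in the other libraries. BraA09g039520.3C (chromosome A09, 30919262 to 30922239, minus strand) had 0 in all 6. Neither of these passed the filter on low counts, and a count of 0 allows up to 3 fragments per library.

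The order of the copies differed between the tissues. In leaf FPKM, BraA02g005650.3C exceeded BraA05g040570.3C 2.70-fold, which exceeded the A02 CA4 copy 7.28-fold, and the A07 CA4 copy, the CA5 copy and the CA3-like copy followed without overlap between neighbours. In petiole the A02 CA4 copy came first, 2.65-fold above the CA5 copy, which was 4.34-fold above the A07 CA4 copy. The A07 CA4 copy and the CA3-like copy overlapped in petiole, and so did BraA02g005650.3C and BraA05g040570.3C, which came last of the 6 there.

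A locus's share of the family's summed FPKM does not depend on how libraries are scaled. The pair held 92.8%, 92.7% and 93.1% of the family in the leaf libraries and 1.35%, 1.62% and 1.32% in the petiole libraries. BraA02g005650.3C alone held 67.8% ± 0.851 in leaf and 0.886% ± 0.236 in petiole. The A02 CA4 copy went from 3.45% ± 0.298 in leaf to 64.6% ± 3.53 in petiole. The CA5 copy went from 1.53% ± 0.109 to 24.5% ± 2.66. These shares were not tested, since the leaf excess of the pair chose it and sets the shares of the rest.

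**Figure D2:**
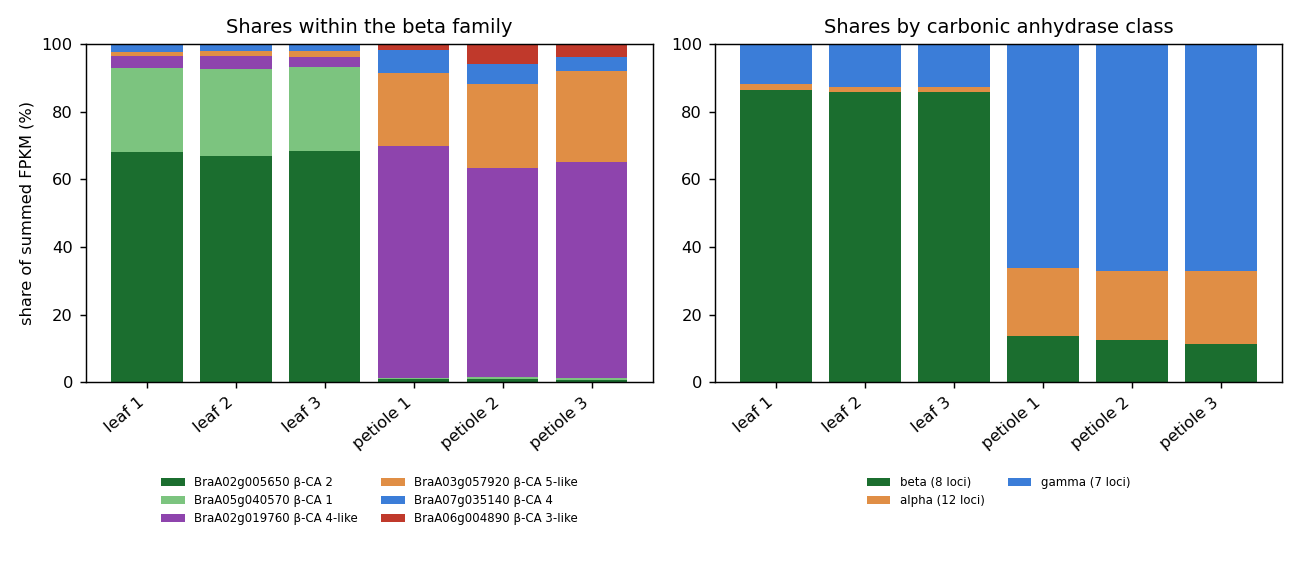
Stacked shares of summed FPKM (%) in each library, by locus within the beta family (left) and by class over 27 carbonic anhydrase loci (right). The pair fills 92.7% to 93.1% of the beta family in leaf and 1.32% to 1.62% in petiole, and the beta class goes from 86.0% of all carbonic anhydrase FPKM in leaf to 12.5% in petiole.

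The CA4 copies were compared with each other within libraries, which removes the scale. The FPKM of the A07 copy over that of the A02 copy was 0.599, 0.538 and 0.644 in leaf and 0.0969, 0.0964 and 0.0629 in petiole. The ranges lay apart, and the mean log2 ratio fell from -0.76 ± 0.13 to -3.58 ± 0.36 (SD), a difference of -2.82. An exact two-sided permutation test gave p = 0.1, which is the smallest that 3 against 3 libraries allow. For the pair, BraA02g005650.3C over BraA05g040570.3C was 2.75, 2.58 and 2.77 in leaf and 2.47, 1.98 and 0.889 in petiole, where each value rests on few fragments. How reads that match several copies were assigned is not given in the sources used here, so levels of the copies are uncertain to the extent that their sequences are alike.

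The table's GO terms separate the copies in ways that the choice of loci did not use. All 8 carry carbonate dehydratase activity, zinc ion binding, carbon utilization and chloroplast. The terms for chloroplast stroma, thylakoid membrane and apoplast are on the pair alone among the 8. The terms for stomatal movement, response to carbon dioxide and stomatal complex development are on 3 loci, BraA05g040570.3C and the 2 CA4 copies, whose log2 differences in CPM were -10.44, -3.45 and -0.68 (the last turning to 0.05 on log2(FPKM + 1)). The first of these values is that of a locus chosen for it.

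Most tested loci of the other carbonic anhydrase classes were higher in petiole. The 12 alpha and 7 gamma loci were found by their descriptions, and 13 of these 19 passed the filter. By edgeR, 10 of the 13 were higher in petiole, 2 were higher in leaf and 1 did not pass, whereas limma on log2(FPKM + 1) gave 11 of 15 loci higher in petiole and 0 in leaf, on a scale where 18431 of 35962 loci were higher in petiole. The edgeR median log2 difference was 0.62, or 0.56 with the 2 loci without leaf counts placed at their floor. Over all loci tested, edgeR called 31.5% for petiole and 31.1% for leaf.

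The class sums depended on the scale in size. Summed gamma levels were 99.8 ± 3.45 CPM in leaf against 120.1 ± 5.06 in petiole, and in FPKM 68.2 ± 2.55 and 141.2 ± 6.04. Summed alpha levels were 12.8 ± 1.19 CPM in leaf against 30.9 ± 1.47 in petiole, and in FPKM 9.24 ± 1.11 and 43.6 ± 2.88. Both classes were thus higher in petiole on either scale, with no overlap between libraries of the tissues. The beta class summed to 906.3 ± 35.8 CPM in leaf against 29.5 ± 2.51 in petiole, and in FPKM to 475.0 ± 15.9 and 26.4 ± 2.27. Without the pair it summed to 65.6 ± 2.70 CPM in leaf against 29.1 ± 2.48 in petiole, a leaf excess of 2.26-fold, and in FPKM to 33.9 ± 1.11 and 26.0 ± 2.22, a leaf excess of 1.30-fold.

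Of 6 alpha loci tested, 5 were higher in petiole by edgeR, beside 31.5% of all loci tested. BraA06g021050.3C, annotated as alpha carbonic anhydrase 8, stood at 5.60, 3.78 and 4.49 CPM in leaf and at 13.7, 15.7 and 16.4 CPM in petiole, a log2 difference of 1.72 ± 0.15 (SE; edgeR adjusted p = 3.65e-06). BraA10g032140.3C, annotated as alpha carbonic anhydrase 3, stood at 1.07, 0.709 and 0.950 CPM in leaf and at 5.71, 5.31 and 7.02 CPM in petiole, a log2 difference of 2.72 ± 0.23 (SE; edgeR adjusted p = 2.02e-06). Neither locus had overlapping tissues. BraA03g016460.3C and BraA09g015500.3C had no leaf counts and low petiole counts, at least 1.27-fold and 2.55-fold higher there against the mean leaf floor, and the call of BraA03g016460.3C was lost without petiole library 2 (edgeR adjusted p = 0.0551) and with a replicate block (0.103). The median log2 difference of the 6 was 2.22, or 0.92 with these 2 loci at that floor.

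Of 7 gamma loci tested, 5 were higher in petiole and 2 in leaf by edgeR, beside 31.5% and 31.1% of all loci tested. BraA07g017490.3C, annotated as gamma carbonic anhydrase 3, stood at 20.8, 18.6 and 19.7 CPM in leaf and at 28.0, 34.3 and 30.6 CPM in petiole, a log2 difference of 0.65 ± 0.09 (SE; edgeR adjusted p = 9.15e-05). BraA08g028180.3C, annotated as gamma carbonic anhydrase 1, went the other way, with a log2 difference of -0.83 ± 0.09 (SE; edgeR adjusted p = 1.83e-05), but on log2(FPKM + 1) it was at -0.09 with a limma adjusted p of 0.333. BraA06g027010.3C was at -0.31 in edgeR (adjusted p = 0.0263) and turned to 0.39 on log2(FPKM + 1), where it passed as higher in petiole (limma adjusted p = 0.0034). Its edgeR call was lost without leaf library 2 (adjusted p = 0.0656) or 3 (0.0861) and without petiole library 1 (0.0731) or 3 (0.0846).

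**Figure D3:**
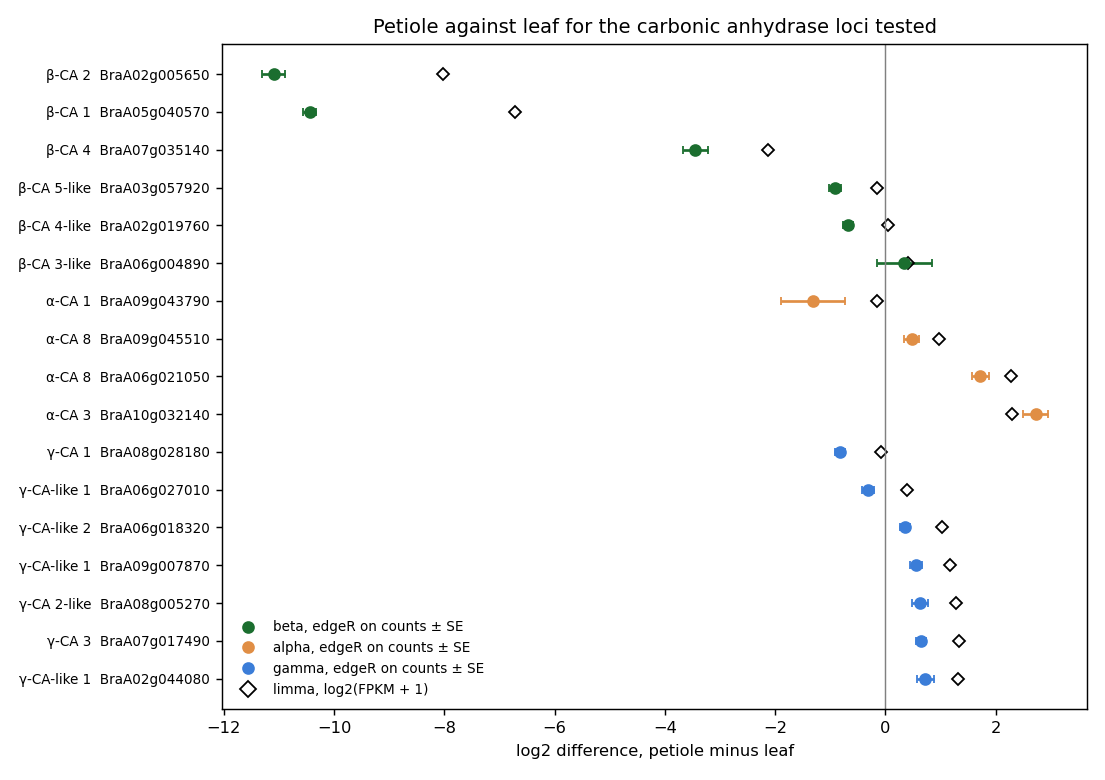
Log2 difference (petiole minus leaf) of the tested beta, alpha and gamma loci, with filled points for edgeR on counts ± SE and open diamonds for limma on log2(FPKM + 1); the 2 alpha loci without leaf counts are not drawn. The pair lies at -11.10 and -10.44 on the count scale, BraA07g035140.3C at -3.45, and the remaining loci between -1.31 and 2.72.

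Further loci of the table carry the KEGG entry for carbonic anhydrase and the GO term for its activity, without the family's words in their description. These 4 loci were looked up after values had been seen, and they are given by identifier alone. BraA01g044810.3C (chromosome A01, 29518958 to 29522254, plus strand) has the same 19 GO terms as BraA05g040570.3C. It stood at 17.7, 20.4 and 20.6 CPM in leaf and at 0 in all petiole libraries, which makes it at least 231-fold lower in petiole against the floor of 3 fragments per library. BraA01g027230.3C stood at 28.6 ± 2.26 CPM in leaf and 3.13 ± 0.354 in petiole, a log2 difference of -3.19 ± 0.12 (SE; edgeR adjusted p = 3.29e-09).

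The other 2 of these loci were closer to level. BraA06g004880.3C, whose 7 GO terms are those of the CA3 copies, lies 3324 bases from BraA06g004890.3C on the same strand. It was the higher of these neighbours, at 4.41 ± 0.801 CPM in leaf and 8.80 ± 0.467 in petiole, with a log2 difference of 1.00 ± 0.16 (SE; edgeR adjusted p = 0.000251). BraA08g016540.3C, whose 4 GO terms are those of the CA5 copy, stood at 36.9 ± 3.93 CPM in leaf and 24.4 ± 0.0596 in petiole. Its log2 difference of -0.59 ± 0.08 (SE) had an edgeR adjusted p of 9.26e-05 and turned to 0.13 on log2(FPKM + 1). In petiole it had a mean of 9.18 FPKM, above the CA5 copy at 6.44 FPKM. With these 4 loci added to the family, the pair's share was 86.5% in leaf and 0.878% in petiole. The merged locus of BraA06g027810.3C and BraA06g027820.3C stood at 49.5 ± 3.09 CPM in leaf and 15.7 ± 2.54 in petiole.

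The loci most like the pair over the 6 libraries were sought by the root mean square difference of centred log2 CPM, with a prior count of 2. With 2 tissues this measure mainly follows the leaf excess, on which the pair was selected, so the likeness is description only. For the pair it also rests on few petiole fragments. Nearest to BraA05g040570.3C was BraA01g044810.3C at 0.208, followed by BraA07g019510.3C at 0.225, which is annotated as Rubisco small chain F1 and stood at 216.6 ± 15.5 CPM in leaf and 0.141 ± 0.0192 in petiole. Then came BraA10g033110.3C (TIC 32), BraA01g014690.3C (cellulose synthase-like G2) and BraA08g028350.3C (an antenna protein), each with 0 in petiole, at 0.296 to 0.310. For loci at 0 this measure depends on the prior count.

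Nearest to BraA02g005650.3C were BraA03g031390.3C at 0.313 and BraA03g037790.3C at 0.322, both annotated as uncharacterized proteins. BraA03g037790.3C stood at 1639 ± 104 CPM in leaf and 0.859 ± 0.0371 in petiole. Then followed BraA01g035500.3C, a phylloplanin-like protein of the leaf surface, at 0.479, BraA07g019510.3C at 0.488 and BraA01g044810.3C at 0.506. The members of the pair were 0.530 apart, which placed BraA02g005650.3C as number 14 among the loci nearest to BraA05g040570.3C, and BraA05g040570.3C as number 6 from the other side.

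Genes that act beside carbonic anhydrase were taken from lists matched by description. Of 25 Calvin cycle loci tested, Rubisco activase included, 23 were higher in leaf by edgeR, beside 31.1% of all loci tested. None was higher in petiole and 2 did not pass by edgeR, and the median log2 difference was -2.76. Limma on log2(FPKM + 1) gave 21 of 27 higher in leaf and 2 in petiole, beside 5084 and 18431 of 35962 loci. Rubisco activase, which frees Rubisco's active site, stood at 1116 ± 25.1 CPM in leaf and 58.3 ± 2.13 in petiole for BraA04g027940.3C, a log2 difference of -4.26 ± 0.04 (SE). In the same list, another Rubisco activase locus (BraA03g021010.3C) was at -4.04 ± 0.08 (SE), and Rubisco small chain F1 (BraA07g019510.3C) was at -10.58 ± 0.10 (SE). The latter rested on about 5.72, 4.42 and 5.46 fragments in petiole, with the same limit on its SE as for the pair.

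Of 15 loci of enzymes that use bicarbonate, subunits included, 6 were higher in petiole, 4 in leaf and 5 did not pass by edgeR. These shares are near those of all loci tested (31.5% and 31.1%), and the median log2 difference was 0.09. With limma on log2(FPKM + 1), 12 of 15 were higher in petiole and 1 in leaf, beside 18431 and 5084 of 35962 loci. BraA08g001620.3C, annotated as phosphoenolpyruvate carboxylase 1, which adds bicarbonate to phosphoenolpyruvate, stood at 156.3 ± 5.15 CPM in leaf and 299.7 ± 5.24 in petiole, a log2 difference of 0.94 ± 0.04 (SE; edgeR adjusted p = 8.64e-09). A locus of the carbamoyl phosphate synthase small chain, BraA07g034470.3C, was at -0.42 in edgeR (adjusted p = 4.67e-05) and 0.31 on log2(FPKM + 1) (limma adjusted p = 0.00082). A biotin carboxyl carrier locus of acetyl-CoA carboxylase, BraA02g006440.3C, was at -0.23 (edgeR adjusted p = 0.0151) and 0.49 (limma adjusted p = 0.000253). Both thus passed in opposite directions on these scales. The edgeR call of BraA02g006440.3C was lost without leaf library 2 (adjusted p = 0.0598) or petiole library 1 (0.0539).

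Plasma membrane intrinsic proteins (PIP) are water channels, some of which pass carbon dioxide. Of 21 PIP loci tested, 18 were higher in petiole, 1 was higher in leaf and 2 did not pass by edgeR, beside 31.5% of all loci tested that were higher in petiole. The median log2 difference of the list was 1.17. Limma on log2(FPKM + 1) gave 20 of 21 higher in petiole and 1 in leaf, beside 18431 and 5084 of 35962 loci. The most abundant, BraA08g015490.3C (PIP2-7-like), stood at 411 ± 7.51 CPM in leaf and 718 ± 19.9 in petiole, with an edgeR adjusted p of 1.76e-08.

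Of 45 loci tested of the stomatal response to carbon dioxide and of guard cells, 25 of them matched by the name of the HT1 kinase, 16 were higher in petiole, 13 in leaf and 16 did not pass by edgeR, with a median log2 difference of 0.19. These shares are near the 31.5% and 31.1% of all loci tested. Limma on log2(FPKM + 1) gave 24 of 46 higher in petiole and 8 in leaf, which is near the 18431 and 5084 of 35962 loci on that scale. HT1 holds back stomatal closure at high carbon dioxide in Arabidopsis, and its text match also takes in related kinases. Of the 45 loci, the 25 matched by this name held 11 of those higher in petiole and 6 of those higher in leaf by edgeR. The guard cell anion channel SLAC1 (BraA06g009180.3C), through which closing guard cells lose anions, stood at 7.79 ± 1.44 CPM in leaf and 1.51 ± 0.264 in petiole, a log2 difference of -2.36 ± 0.21 (SE; edgeR adjusted p = 3.00e-06). The FAMA-like locus BraA01g030050.3C, named after a factor of guard cell formation, stood at 3.23 ± 0.547 and 0.405 ± 0.052 CPM. KAT1 (BraA09g021740.3C) and KAT2 (BraA01g009770.3C), potassium channels of guard cells, had edgeR adjusted p of 0.518 and 0.993. The 6 guard cell marker loci, 1 of them at 0 in all libraries, summed to 4.2 to 5.0 FPKM in leaf and 1.8 to 2.4 FPKM in petiole.

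**Figure D4:**
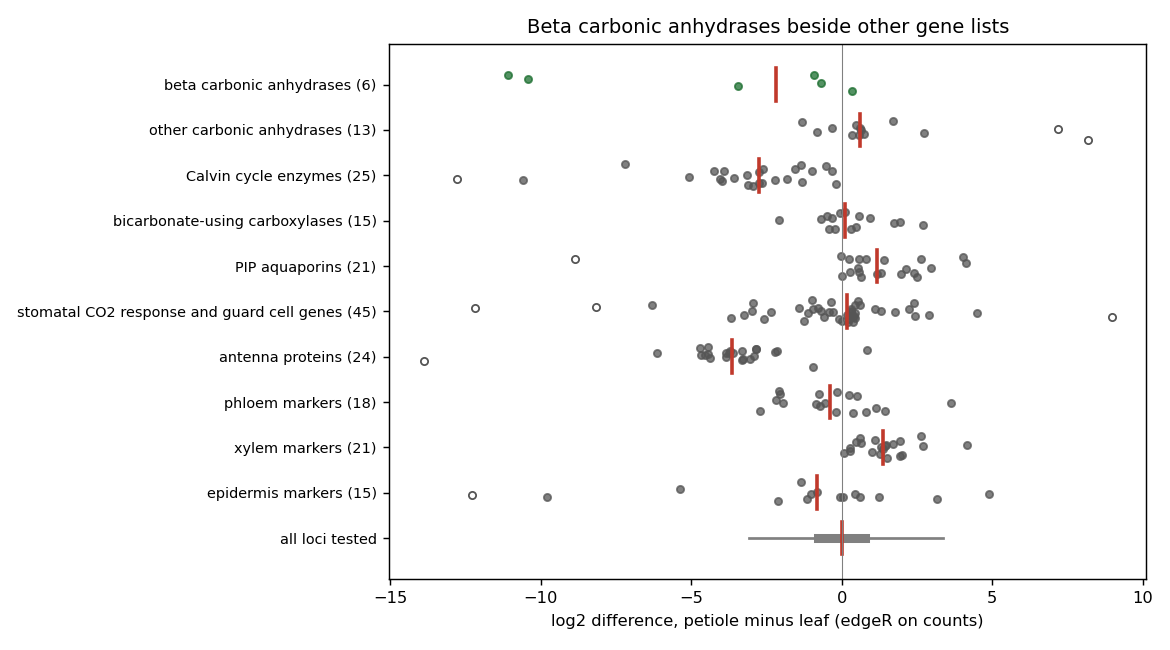
Log2 difference (petiole minus leaf, edgeR) of each tested locus by list, with the number tested in brackets, red bars at the medians and open points for loci at 0 in 1 tissue, whose fitted value is no bound; for all loci tested the thick and thin grey bars span the 25th to 75th and 5th to 95th percentiles. The pair stands at the left of the beta family, beside medians of -2.76 for the Calvin cycle list and 1.17 for the PIP list.

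The chromosomal surroundings of the copies were also described. The nearest named locus on each side was taken for all 8 copies, 16 in all, of which 8 passed the filter. By edgeR 3 were higher in leaf, 1 was higher in petiole and 4 did not pass, beside 31.1% and 31.5% of all loci tested. Limma on log2(FPKM + 1) gave 1 of 10 higher in leaf and 3 in petiole, beside 5084 and 18431 of 35962 loci. Beside BraA05g040570.3C, at a gap of 3416 bases, lies BraA05g040580.3C, annotated as the kinase HT1. It stood at 9.34 ± 0.600 CPM in leaf and 10.6 ± 0.824 in petiole, with a log2 difference of 0.19 ± 0.11 (SE; edgeR adjusted p = 0.165), but it passed at 0.50 with library totals in place of TMM (adjusted p = 0.00278) and at 0.77 with limma on log2(FPKM + 1) (adjusted p = 0.000135).

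Beside BraA02g005650.3C, BraA02g005640.3C stood at 0.429 ± 0.138 CPM in leaf and 0.932 ± 0.501 in petiole (edgeR adjusted p = 0.104, or 0.0401 with library totals, and limma adjusted p = 0.0172 on log2(FPKM + 1)), and BraA02g005660.3C was below the filter. The largest edgeR difference among the 8 neighbours tested was beside the silent CA3 copy BraA09g039520.3C, at a gap of 181 bases. There BraA09g039510.3C, annotated as a chloroplastic quinone oxidoreductase-like protein, stood at 14.2 ± 0.930 CPM in leaf and 0.768 ± 0.313 in petiole, a log2 difference of -4.21 ± 0.26 (SE; edgeR adjusted p = 4.41e-07).

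**Figure D5:**
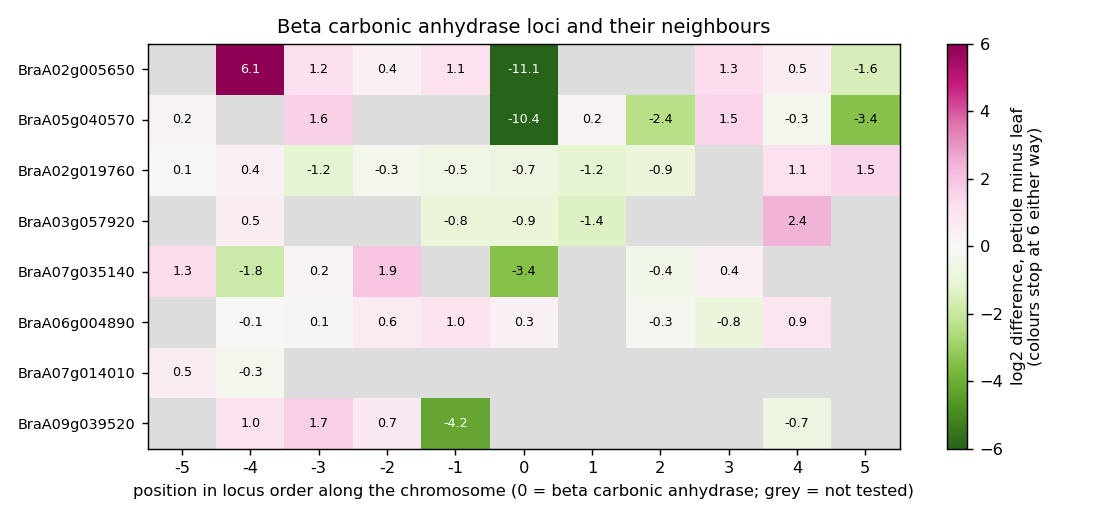
Log2 difference (petiole minus leaf, edgeR) of each beta carbonic anhydrase locus (position 0) and the 5 named loci on each side in chromosomal order, green for higher in leaf and pink for higher in petiole, with grey for loci not tested. The nearest tested loci beside BraA02g005650.3C and BraA05g040570.3C are at 1.12 and 0.19.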

How the data were processed

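Per locus and library the deposited table holds an FPKM value beside an estimated count, per the file headers. The deposited estimated counts were whole numbers, not normalised, so rounding changed nothing. The deposited FPKM are scaled by the authors to length and depth, with a placeholder of 0.0001 where the count was 0, which was read as 0. Not given in the sources used here are the aligner, the counter, the plant genome build and whether counting used strand. The submitters' processing notes name Bowtie 0.12.2 and mm8, a mouse build, without a role. Coordinates are those of the table. The RefSeq gene table at hand has other identifiers, so it played no part.

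Tissues were compared with edgeR 4.0.16 (R 4.3.3): filterByExpr, TMM factors (leaf 0.885 to 0.925, petiole 1.095 to 1.137), robust quasi-likelihood F test, two-sided, Benjamini-Hochberg adjustment over 31473 loci and a threshold of 0.05. It called 62.6% of them, and for 71.3% the tissues did not overlap in CPM. The SE is the absolute log2 difference divided by the square root of F. The fit took units as counts, at several per fragment, so at few fragments the SE can fall below counting error. Alternatives were limma 3.58.1 on log2(FPKM + 1), DESeq2 1.42.0, other scalings and filters, a replicate block and each library left out. The floor was 3 fragments, or 12 units, per library, and covers counting error only.

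Members and lists were chosen with earlier results of these data known. Named were all beta loci, the 10 other carbonic anhydrases of highest mean FPKM, 3 loci of highest mean FPKM per list, nearest neighbours and the 5 most similar loci. From these, those printed are the ones the text turns on. BraA03g016460.3C, BraA09g015500.3C, the 4 KEGG and GO loci and the guard cell markers beyond this rule were added after values were seen.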

Additional observations from a re-analysis of the deposited data

How the results depend on the processing

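Over the 63 loci other than the pair that the tables follow, 872 of 933 values under other settings kept the direction and the side of the threshold. With a library left out, 370 values did so, 7 lost the call and 1 gained it. With the deposited FPKM, 136 values did so, 18 turned direction, 18 lost the call and 8 gained it. The number of beta loci called outside the pair went from 3 to 1 with limma on log2(FPKM + 1), on log2(FPKM + 0.1) and with loci under a mean of 1 FPKM removed, and it stayed at 3 with every other setting, each library left out included. The pair's log2 differences ranged from -11.27 to -10.79 and from -10.56 to -10.13 in the count fits. Adding the merged locus to the family put the pair's share at 91.4% in leaf and 1.25% in petiole, and adding the 4 KEGG and GO loci put it at 86.5% and 0.878%.

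The direction turned on the FPKM scale (with 1 added, 0.1 added, and loci under a mean of 1 FPKM removed) for BraA02g019760.3C (0.0547, 0.0575, 0.0547), BraA06g027010.3C (0.392, 0.423, 0.392), BraA07g034470.3C (0.308, 0.316, 0.308), BraA02g006440.3C (0.492, 0.507, 0.492), BraA01g011080.3C (0.182, 0.190, 0.182) and BraA08g016540.3C (0.134, 0.148, 0.134). It also turned for BraA02g006440.3C with library totals in place of TMM (0.0786). The median of all loci was 0.36 with log2(FPKM + 1), 0.60 with log2(FPKM + 0.1) and 0.32 with library totals, and the share of calls that were higher in petiole was 78.4%, 78.4% and 65.2%, beside 50.3% in the edgeR fit.

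Same-numbered leaf and petiole libraries did not deviate together (correlations of 0.0139, -0.0102 and 6.88e-05), so the numbers are not taken as pairs. With a replicate block 18683 loci were called in place of 19711, the beta count stayed at 3, and among the loci followed only BraA03g016460.3C lost its call (adjusted p = 0.103). Leaving out 1 library gave 18540 to 18899 calls. Loci near the floor, such as the pair in petiole, are limited by depth.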
